A study of Mus musculus with 30 samples.

Results

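Matrix glycoprotein, laminin and proteoglycan genes were followed in 3T3-L1 preadipocytes after an siRNA against Kdm5c, which encodes a histone demethylase, and after a control siRNA. The set was a list of 44 genes grouped by role, and a gene was a member if the deposited count table held it. That gave 38 members among the 12016 genes of the count table. The other 6 listed genes (Fbn2, Eln, Efemp1, Mfap5, Lum and Ecm2) were only in the wider table of 55573 genes and are described apart.

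The extracellular matrix around fibroblasts is a mesh of collagen fibrils, fibronectin, elastic microfibrils and hyaluronan. Small leucine-rich proteoglycans bind collagen fibrils and set their spacing, matricellular proteins such as thrombospondins and CCN proteins signal to cells with little structural role, and fibrillin and fibulins build microfibrils and elastic fibres. Laminins, nidogens and perlecan form the basement membrane, a sheet that surrounds mature adipocytes in fat tissue. Cultured preadipocytes lay down a fibronectin-rich matrix that is replaced by a laminin-rich sheet as they differentiate.

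3T3-L1 is a cloned line of mouse fibroblasts used as a model of preadipocytes. The Kdm5c group received a pool of siRNAs against mouse Kdm5c and the scramble group a non-targeting siRNA, each at 50 nM with the same lipid reagent while sub-confluent. RNA was taken at 24 h (day −2), 48 h (day −1) and 72 h (day 0), the last being the day on which differentiation would start. There were 5 libraries in each of 6 groups. Whether the 5 came from separate cultures is not said in the labels, and p-values then describe only how these libraries spread, which may be technical.

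Library totals were 25217905 to 33725717 reads. Levels are given in CPM, a gene's reads scaled to a fixed number of reads per library, as mean ± SD over 5 libraries, and a count of 0 allows up to 3 reads, or 0.089 to 0.119 CPM by library, for counting error only. Kdm5c itself was at 25.5 ± 1.29 CPM under its siRNA and 157.1 ± 1.75 CPM under scramble on day −2, and 16.2% of the scramble level was left. On day 0 it was at 53.3 ± 2.38 and 211.7 ± 4.85 CPM, with 25.2% left.

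Markers of fibroblasts and of other cell types were checked in every library. All 11 fibroblast and preadipocyte markers were detected, with summed levels of 28472 to 30249 CPM with Kdm5c siRNA and 27184 to 28289 CPM with scramble on day −2, 31373 to 33478 and 29806 to 33021 CPM on day −1, and 35916 to 40262 and 37773 to 41596 CPM on day 0. Of these 11, 3 were higher and 1 lower with Kdm5c siRNA on day −2, 4 and 4 on day −1, and 2 and 3 on day 0, when Ly6a (log2 fold change 0.64) and Thy1 (0.27) were higher and Dlk1 (−0.21), Col3a1 (−0.19) and Pdgfrb (−0.06) lower. Of 8 markers of mature adipocytes only Fabp4 was above the limit for a count of 0, and on day 0 it was higher with Kdm5c siRNA (32.2 and 26.2 CPM; log2 fold change 0.30, adjusted p = 0.00151). Adipoq, Plin1, Cfd and Lep were at or near 0. The 6 leukocyte markers summed to 9.46 to 10.5 CPM with Kdm5c siRNA and 7.52 to 9.85 CPM with scramble on day 0. Ptprc and Adgre1 were at or near 0, Cd14 was not called on any day, and Cd68 (3.3 and 1.7 CPM, log2 fold change 0.91, adjusted p = 1.28e-06) and Csf1r (1.52 and 1.07 CPM, 0.52, adjusted p = 0.0415) were higher on day 0. The 6 endothelial markers summed to 5.04 to 7.88 and 4.57 to 5.47 CPM on day 0, with Vwf higher on that day (0.44, adjusted p = 0.00422), Kdr higher on day −1 (0.62, adjusted p = 0.0166) and Cdh5 and Cldn5 at or near 0. All 6 epithelial markers were under 1 CPM. Of 6 cartilage and bone markers only Sox9 exceeded 1 CPM, lower on day −2 (80.6 and 91.4 CPM, −0.18) and higher on day 0 (95.8 and 84.0 CPM, 0.19). The 5 smooth muscle markers summed to 2830 to 2929 CPM with Kdm5c siRNA and 2484 to 2727 CPM with scramble on day −2, 1083 to 1273 and 915 to 1005 CPM on day −1, and 747 to 808 and 579 to 637 CPM on day 0. Acta2 made up most of that sum and was higher on all 3 days, while Myh11 stayed under 1 CPM. The part of any of these markers in the results below was not tested.

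Some libraries stood apart within their group in many of these genes. On day −1, scramble replicates 4 and 5 were the lowest of their group in 30 of 36 detected listed genes together (14 and 16), and both were lower than replicates 1 to 3 in genes such as Aspn, Lama4 and Vcan. With Kdm5c siRNA on day −1, replicate 2 was the lowest of its group in 24 of 35. On day 0, replicate 1 was the lowest of its group in 26 of 39 detected genes with Kdm5c siRNA and in 27 of 39 with scramble. Detected here means a group mean of at least 2 CPM. Of the 20 detected genes that at least doubled in scramble cells between day −2 and day 0, replicate 1 was lowest in 16 with Kdm5c siRNA and in 19 with scramble on day 0. Counts without these libraries are given beside the main counts.

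Kdm5c siRNA changed about as many of these genes upward as downward by day 0, after a start in which more were higher than lower. On day −2, 10 of 38 members were higher and 2 lower than with scramble (26.3% and 5.26%), against a background of 11.3% higher and 11.9% lower among all genes tested. On day −1, 13 were higher and 8 lower (34.2% and 21.1%; background 18.8% and 16.8%). On day 0, 12 were higher and 12 lower (31.6% each; background 19.3% and 16.2%). In either direction 31.6%, 55.3% and 63.2% of members were called on day −2, day −1 and day 0, and 23.2%, 35.6% and 35.5% of all genes. The calls are those of edgeR's quasi-likelihood test, two-sided, at a Benjamini-Hochberg adjusted p under 0.05 over all 12016 genes. In bulk RNA, fewer cells of a type and less RNA per cell cannot be told apart. Without day −1 scramble replicates 1, 2 and 3, 19 were higher and 4 lower on day −1, and without replicates 4 and 5, 12 were higher and 12 lower. Without day −1 Kdm5c siRNA replicate 2, 15 were higher and 6 lower on that day. Without replicate 1 of both siRNAs on day 0, 12 were higher and 12 lower on that day. The background shares given in this report belong to fits of every library and do not apply to fits with libraries left out. All-gene counts without day −1 scramble replicates 1, 2 and 3, lower in each direction, are given at the end. For the other leave-outs no all-gene share is given.

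Apart from Mfap2, Prelp and Ecm1, the called changes of members were below 1.5-fold. The median size of a called change in these genes was 0.22, 0.29 and 0.36 on the log2 scale on day −2, day −1 and day 0, and 0.15, 0.16 and 0.16 in all called genes. The groups' libraries did not overlap in 12, 16 and 15 of the 38 members on the 3 days, or 31.6%, 42.1% and 39.5%, against a background of 16.1%, 22.3% and 21.7% of all genes. For a gene without overlap the two-sided exact permutation test gives p = 0.00794, the smallest that 5 against 5 libraries allow. Of the 38 members, 32 were called on at least 1 day and none was called in opposite directions on different days. Neither count was taken over all genes, so neither can be read as particular to the members. Higher on all 3 days were Thbs1, Sparc, Ccn5, Has2 and Ecm1, and lower on all 3 was Emilin1. Called lower on day 0 and on neither earlier day were Postn, Dcn, Podn, Ogn, Aspn and Lama2. A gene without a call may still have been lower. Podn, at 1.07 and 1.29 CPM on day −1, had a log2 fold change of −0.26 then (adjusted p = 0.19) and −0.24 on day 0. The difference between its effects on those 2 days was 0.01 (adjusted p = 0.98). Between day 0 and day −2 the effect differed for Postn, Ogn and Aspn, and no difference was called for Dcn, Podn or Lama2. The 6 members not called on any day were Fbln1, Tnc, Sparcl1, Fmod, Lama5 and Matn2.

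**Figure D1:**
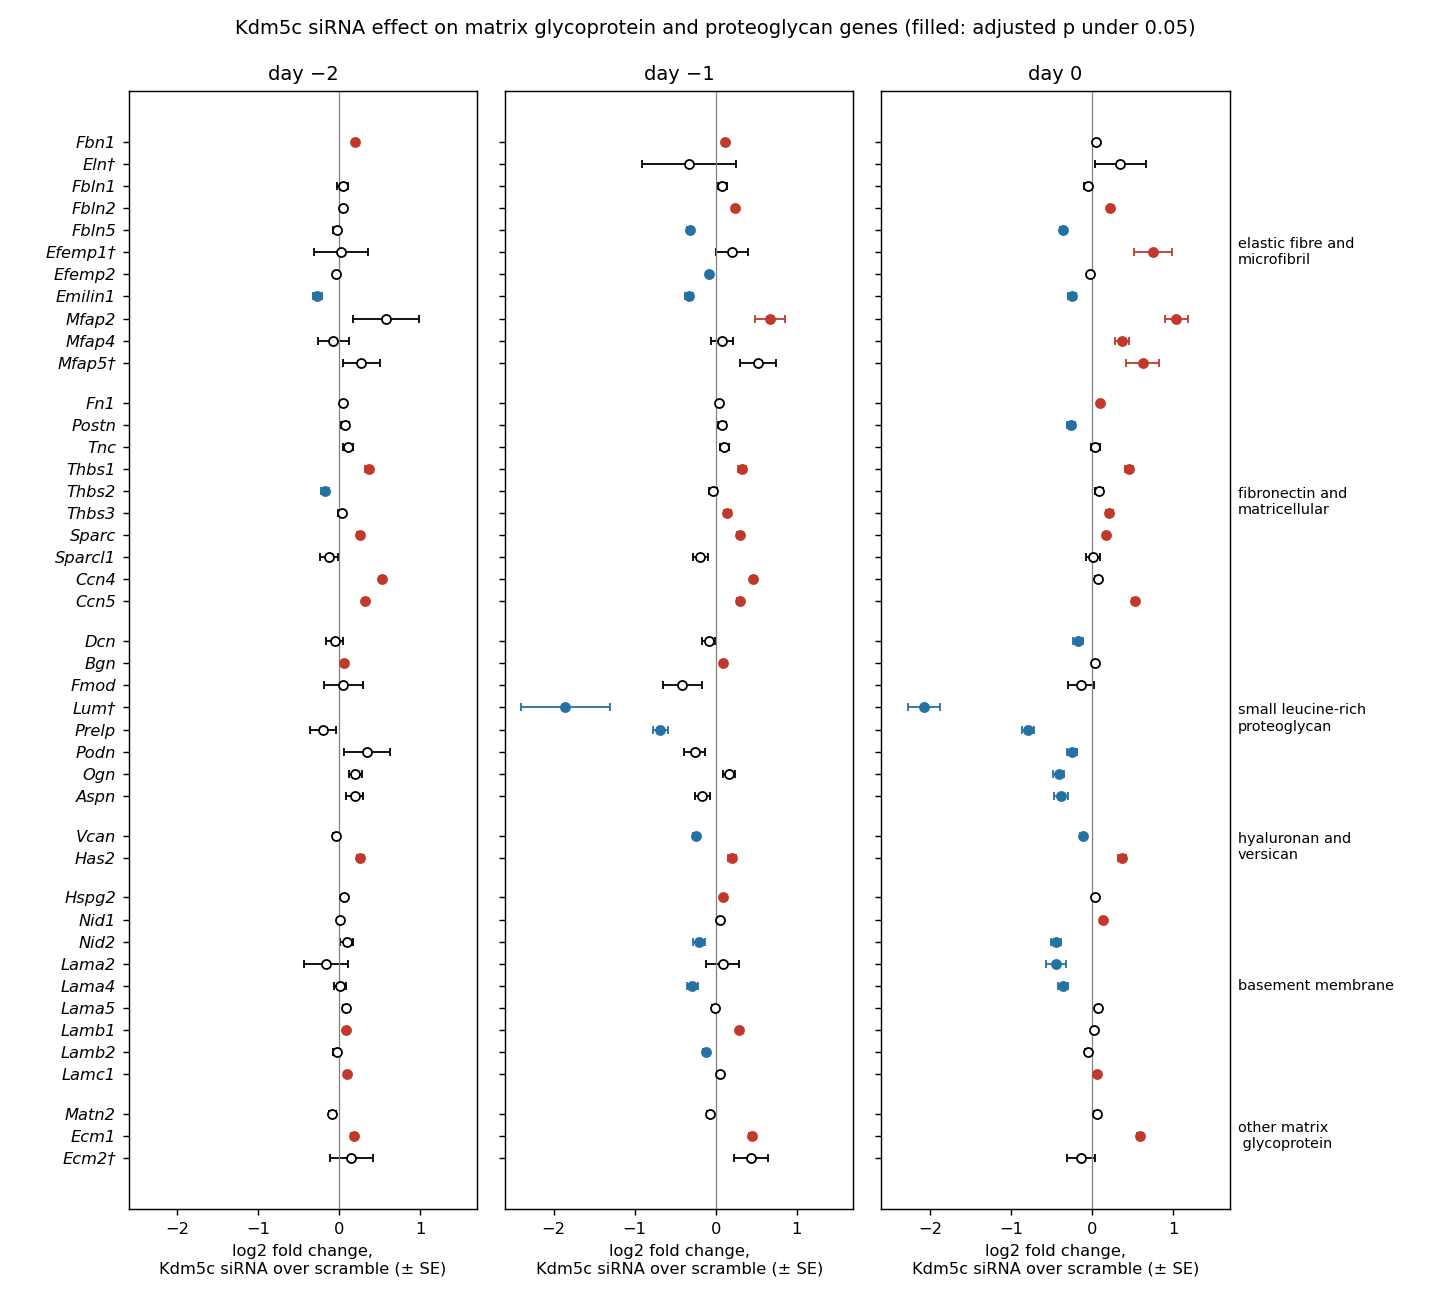
Log2 fold change of Kdm5c siRNA over scramble (x axis, ± SE of the edgeR model) for each fitted gene (rows, grouped by role) on day −2, day −1 and day 0; filled points had an adjusted p under 0.05 (red higher, blue lower), and daggers mark genes outside the count table, fitted on reads recovered from the CPM table. Points are left out where the scramble mean was under the limit for a count of 0, and on day 0 all filled points of the small leucine-rich group lie below 0.

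Small leucine-rich proteoglycan genes were lower under Kdm5c siRNA on day 0. Of the 7 in the count table, 5 fell (Prelp, Ogn, Aspn, Podn and Dcn), 0 rose and 2 were not called (Bgn and Fmod), with a median log2 fold change of −0.24, against 0.00 over all genes. The 5 are 71.4% of the 7, against the 16.2% of all genes lower on that day. On day −2, 1 of the 7 was higher (Bgn) and 0 lower, and on day −1, 1 was higher (Bgn) and 1 lower (Prelp). The median log2 fold change of the 7 was 0.06 on day −2 and already −0.17 on day −1. A single gene is 14.3% of the 7. Among all genes 11.3% were higher and 11.9% lower on day −2, and 18.8% and 16.8% on day −1. Lum, the gene for lumican, was outside the count table and had the largest fall of the listed genes.

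Lumican binds collagen fibrils and keeps them thin and evenly spaced. Lum (ENSMUSG00000036446; GRCm38 chromosome 10, 97565128 to 97572703, plus strand) was at 1.66, 2.3, 2.97, 1.97 and 2.57 CPM with Kdm5c siRNA on day 0, against 5.74, 12.1, 7.93, 11.2 and 11.4 CPM with scramble. Every Kdm5c siRNA library was below every scramble library, and the means were 2.3 ± 0.512 and 9.68 ± 2.73 CPM. Lum was fitted on reads recovered from the CPM table, with 15135 genes. Of those, 8.66% were higher and 8.95% lower on day −2, 14.9% and 13.8% on day −1, and 16.1% and 12.9% on day 0. On day 0 Lum fell by 2.08 on the log2 scale (adjusted p = 1.78e-10, SE 0.20). On day −1 its means were 0.162 ± 0.135 and 0.585 ± 0.298 CPM, a log2 fold change of −1.86 (adjusted p = 0.00916, SE 0.55). Scramble replicate 4 on that day was at 0.067 CPM, below the 4 other scramble libraries, which were at 0.599 to 0.773 CPM, and below 4 of the 5 Kdm5c siRNA libraries. On day −2 both groups were near the limit for a count of 0, and no fold is given.

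Prelp encodes a leucine-rich protein that links basement membranes to collagen. Prelp (ENSMUSG00000041577; chromosome 1, 133910304 to 133921414, minus strand) was at 11, 13.2, 13.1, 9.62 and 11.6 CPM with Kdm5c siRNA on day 0 and at 18.6, 21, 19.8, 21.7 and 20.5 CPM with scramble. The groups did not overlap, and Prelp fell by 0.79 on the log2 scale (adjusted p = 1.82e-10, SE 0.07). On day −1 it was at 3.77, 4.89, 5.18, 4.59 and 4.57 CPM with Kdm5c siRNA and 7.97, 8.03, 7.87, 5.83 and 7.44 CPM with scramble, again without overlap (log2 fold change −0.68, adjusted p = 5.56e-07, SE 0.09). On day −2 the means were 1.41 ± 0.162 and 1.62 ± 0.137 CPM (log2 fold change −0.20, adjusted p = 0.402).

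Ogn and Aspn, the genes of osteoglycin and asporin, lie 40.48 kb apart on chromosome 13, in a row with Ecm2, which is 11.65 kb from Aspn. Asporin binds collagen and TGF-beta, and osteoglycin is a secreted leucine-rich protein first studied in bone. Ogn (ENSMUSG00000021390; 49608046 to 49624501, plus strand) was at 46, 49, 57.7, 53.5 and 61.7 CPM with Kdm5c siRNA on day 0, against 57.5, 79.9, 66.9, 75.1 and 77.4 CPM with scramble. The groups overlapped through scramble replicate 1, and Ogn fell by 0.41 on the log2 scale (adjusted p = 1.1e-05, SE 0.07). On day −2 it had stood at 24.1 ± 0.804 and 21.1 ± 1.45 CPM with no overlap (log2 fold change 0.20, adjusted p = 0.0801), and on day −1 at 34.7 ± 1.53 and 31 ± 1.79 CPM (0.16, adjusted p = 0.0891). Aspn (ENSMUSG00000021388; 49544443 to 49567565, plus strand) was at 141, 134, 171, 177 and 181 CPM with Kdm5c siRNA on day 0 and 180, 238, 202, 221 and 210 CPM with scramble. Only the highest Kdm5c siRNA library reached the lowest scramble library, and Aspn fell by 0.39 (adjusted p = 0.000562, SE 0.09). On day −1 Aspn was at 74.7, 73.6, 91.1, 80.1 and 85.2 CPM with Kdm5c siRNA and at 107, 98.1, 103, 71.2 and 76 CPM with scramble, where replicates 1 to 3 lay above every Kdm5c siRNA library and replicates 4 and 5 did not (log2 fold change −0.17, adjusted p = 0.163). Ecm2 was at 1.61 ± 0.277 and 1.79 ± 0.543 CPM on day 0 (log2 fold change −0.14, adjusted p = 0.615). Cenpp, on the opposite strand, overlaps all 3 genes and averaged 3.38 CPM. The libraries were strand-specific, but whether the counting used strand is not given in the sources used here.

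Podn, the gene of podocan, was at 8.54, 9.72, 8.82, 8.62 and 9.32 CPM with Kdm5c siRNA on day 0 and at 9.55, 10.6, 10.5, 10.9 and 11.9 CPM with scramble, where scramble replicate 1 lay below 1 Kdm5c siRNA library (log2 fold change −0.24, adjusted p = 0.0031, SE 0.06). Scp2, at a mean of 40.0 CPM, is annotated over the same strand of 52607 bases of Podn, so reads could be shared. Dcn, for decorin, the best known collagen-binding member of the family, was at 165.3 ± 9.41 and 186.4 ± 22.7 CPM (log2 fold change −0.17, adjusted p = 0.0353, SE 0.06). The Dcn call was the weakest of the 5: adjusted p was 0.114 without Kdm5c siRNA replicate 1, 0.0718 without its replicate 4, and 0.141, 0.0877 and 0.106 without scramble replicates 2, 4 and 5. Lum lies 46.98 kb from Dcn on chromosome 10. Fmod, for fibromodulin, lies 115.8 kb from Prelp and was at 7.88 ± 1.59 and 8.69 ± 2.08 CPM (log2 fold change −0.14, adjusted p = 0.532).

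Bgn, the gene of biglycan (ENSMUSG00000031375; chromosome X, 73483602 to 73495933, plus strand), was higher on day −2 and day −1. It was at 4665, 4568, 4511, 4590 and 4661 CPM with Kdm5c siRNA on day −2, each above every scramble library (4386, 4446, 4405, 4507 and 4385 CPM), and at 5077 ± 143 and 4762 ± 61.9 CPM on day −1. The log2 fold changes were 0.06 (adjusted p = 0.0251) and 0.09 (adjusted p = 0.000273), and 0.04 on day 0 (adjusted p = 0.146). The day −2 call was lost without any of 5 single libraries, Kdm5c siRNA replicates 1 and 5 and scramble replicates 1, 3 and 5 (adjusted p = 0.0509 to 0.0589). Per kilobase of exon, Bgn was the most abundant gene of the family in scramble cells on day 0, at 956.4 ± 17.8 CPM per kb, against 89.2 ± 9.16 for Aspn, 31.9 ± 3.88 for Dcn, 27.8 ± 3.56 for Ogn and 3.95 ± 1.11 for Lum.

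**Figure D2:**
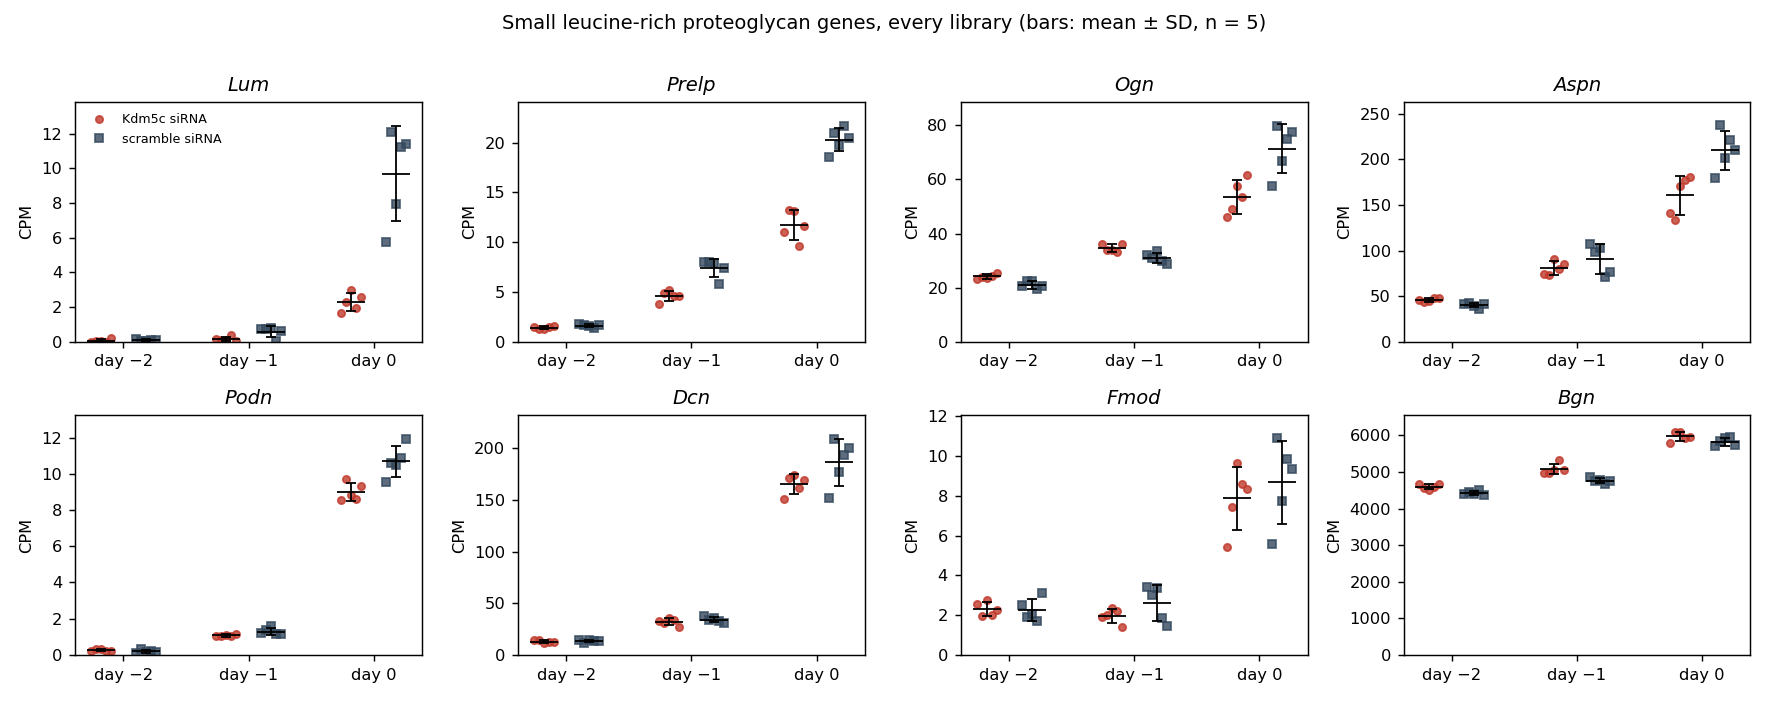
CPM (y axis, from 0) of 8 small leucine-rich proteoglycan genes in every library by day (x axis), with Kdm5c siRNA as red circles left of scramble as dark squares, and black bars as mean ± SD of 5 libraries. On day 0 the red and dark points are apart in Lum and Prelp, overlap partly in Ogn, Aspn, Podn and Dcn, and overlap widely in Fmod and Bgn.

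Promoter sequences of 28 of the 44 listed genes were in a RefSeq table of the same build (GRCm38.p6), from 250 bases before to 50 bases after each annotated start. Windows are shown for 4 genes called on day 0, Prelp, Ogn and Aspn, which fell, and Ecm1, which rose, as the starts of genes described here with every library; they do not stand for all genes that rose or fell. Capitals mark matches, on either strand, to the AP-1 motif TGANTCA, the TATA box TATAAA, the GC box GGGCGG or the TEAD motif GGAATG.
Prelp, chr1:133921352-133921651, minus strand: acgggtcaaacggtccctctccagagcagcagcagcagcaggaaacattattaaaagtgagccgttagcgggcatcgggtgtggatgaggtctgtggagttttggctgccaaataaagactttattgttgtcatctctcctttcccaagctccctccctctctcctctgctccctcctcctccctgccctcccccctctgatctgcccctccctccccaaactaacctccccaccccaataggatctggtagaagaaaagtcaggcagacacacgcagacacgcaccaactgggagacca
Ogn, chr13:49607765-49608064, plus strand: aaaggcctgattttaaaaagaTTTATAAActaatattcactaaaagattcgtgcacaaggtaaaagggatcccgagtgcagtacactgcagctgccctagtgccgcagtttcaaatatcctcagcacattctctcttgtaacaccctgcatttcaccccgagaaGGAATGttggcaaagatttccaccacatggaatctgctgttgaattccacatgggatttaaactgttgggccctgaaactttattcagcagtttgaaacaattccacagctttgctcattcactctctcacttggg
Aspn, chr13:49544193-49544492, plus strand: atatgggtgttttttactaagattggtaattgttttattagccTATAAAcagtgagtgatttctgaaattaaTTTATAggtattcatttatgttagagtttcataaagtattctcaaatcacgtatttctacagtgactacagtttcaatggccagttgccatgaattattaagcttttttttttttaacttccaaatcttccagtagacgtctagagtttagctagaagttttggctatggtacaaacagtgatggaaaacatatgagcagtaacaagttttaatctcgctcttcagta
Ecm1, chr3:95739520-95739819, minus strand: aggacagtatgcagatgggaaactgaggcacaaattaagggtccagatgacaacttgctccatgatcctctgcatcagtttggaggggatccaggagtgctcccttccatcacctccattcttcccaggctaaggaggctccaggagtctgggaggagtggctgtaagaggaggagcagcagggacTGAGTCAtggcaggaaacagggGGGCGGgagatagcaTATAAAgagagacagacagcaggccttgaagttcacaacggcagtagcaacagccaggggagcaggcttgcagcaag
The Ecm1 window holds TGANTCA 64 bases before the start, GGGCGG 42 bases before it and TATAAA 27 bases before it. Over all 32851 windows of 300 bases in the table, 7.81% hold TGANTCA, 13.6% TATAAA, 35.7% GGGCGG and 14.7% GGAATG. The Ogn window holds overlapping TATAAA matches 229 and 227 bases before the start and GGAATG 86 bases before it, and the Aspn window holds TATAAA 207 and 178 bases before the start. The Prelp window holds none of these letters. CpG dinucleotides number 7 in the Prelp window, 4 in Ogn, 3 in Aspn and 2 in Ecm1, against a median of 7 over all windows. Among other genes that fell on day 0, Podn and Fbln5 have 2 windows each, of which 1 holds 2 matches to GGGCGG and the other 0. The Vcan window holds 2 such matches and that of Lama2 holds 1. The Emilin1 window and both windows of Postn hold 0, and 1 of the Postn windows holds TATAAA. Of the 2 windows of Mfap2, which rose most, 1 holds GGAATG and the other holds 2 matches to GGGCGG. The matches describe the sequence and say nothing of binding.

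Several matricellular genes were higher with Kdm5c siRNA throughout, and Postn moved the other way on day 0. Of the 10 genes of fibronectin and the matricellular group, 4 rose and 1 fell on day −2, 5 rose and 0 fell on day −1, and 5 rose and 1 fell on day 0. On day −2 that is 40% higher and 10% lower, against 11.3% and 11.9% of all genes. On day −1 it is 50% and 0%, against 18.8% and 16.8%. On day 0 it is 50% and 10%, against 19.3% and 16.2%. Thbs1, Sparc and Ccn5 rose on all 3 days, Ccn4 on day −2 and day −1, Thbs3 on day −1 and day 0, and Fn1 on day 0. Tnc and Sparcl1 were not called on any day.

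Ccn4 encodes a secreted CCN protein induced by Wnt signalling. Ccn4 (ENSMUSG00000005124; chromosome 15, 66891320 to 66923201, plus strand) was at 254, 279, 255, 257 and 256 CPM with Kdm5c siRNA on day −2 and at 173, 183, 174, 179 and 194 CPM with scramble. No library of one group reached the other, and the log2 fold change was 0.53 (adjusted p = 2.13e-14, SE 0.03). On day −1 it was at 196.9 ± 9.52 and 143.2 ± 3.09 CPM, also without overlap (log2 fold change 0.46, adjusted p = 5.53e-13). On day 0 the means were 203.7 ± 5.82 and 194.1 ± 5.13 CPM, which overlapped (log2 fold change 0.07, adjusted p = 0.0855). In scramble cells Ccn4 dipped on day −1, and in Kdm5c siRNA cells it was highest on day −2.

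Ccn5, whose protein lacks the C-terminal domain of other CCN proteins (ENSMUSG00000027656; chromosome 2, 163820861 to 163833146, plus strand), rose most on day 0. It was then at 66.9, 72.6, 75.2, 73.3 and 74.3 CPM with Kdm5c siRNA and at 47, 49.1, 50.7, 53.8 and 50.2 CPM with scramble, with a gap between the groups (log2 fold change 0.53, adjusted p = 4.12e-13, SE 0.04). On day −2 the means were 92.2 ± 4.42 and 74 ± 2.13 CPM (log2 fold change 0.32) and on day −1 83.4 ± 2.12 and 67.7 ± 2.35 CPM (0.30), with adjusted p of 2.16e-08 and 4.19e-08. Its level fell day by day in scramble cells, and the Kdm5c siRNA mean on day 0 was close to the scramble mean of day −2.

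Thbs1, for thrombospondin-1, which activates latent TGF-beta and inhibits vessel growth (ENSMUSG00000040152; chromosome 2, 118111876 to 118127133, plus strand), was at 706, 644, 766, 774 and 765 CPM with Kdm5c siRNA on day 0 and at 574, 500, 564, 531 and 491 CPM with scramble. The groups did not overlap on any day, and the log2 fold changes were 0.36, 0.33 and 0.46 on day −2, day −1 and day 0 (adjusted p = 6.81e-07, 2.12e-06 and 2.97e-09; SE 0.05 each). Sparc, for osteonectin, which binds collagen and calcium, was at 1987, 2004, 1944, 1991 and 2053 CPM with Kdm5c siRNA on day −2 and at 1695, 1709, 1686, 1647 and 1675 CPM with scramble. Its libraries were apart on day −2 and day −1 and overlapped on day 0, with log2 fold changes of 0.25, 0.30 and 0.18 (adjusted p = 1.06e-06, 1.32e-08 and 0.000112; SE 0.03 each). Thbs3 was at 59.2, 58.1, 58.5, 62.8 and 59.4 CPM with Kdm5c siRNA on day 0 and at 55.2, 50.8, 51.5, 49.8 and 50.8 CPM with scramble, without overlap (log2 fold change 0.21, adjusted p = 0.000168) and at 53.9 ± 1.78 and 49 ± 3.28 CPM on day −1 (0.14, adjusted p = 0.00932). The day −1 call of Thbs3 was lost without scramble replicates 4 and 5 (log2 fold change 0.08, adjusted p = 0.176). Mtx1, at a mean of 24.4 CPM, overlaps 11658 bases of Thbs3 on the opposite strand. Thbs2 was lower on day −2 alone, at 373, 323, 373, 379 and 372 CPM with Kdm5c siRNA against 450, 417, 429, 407 and 364 CPM with scramble (log2 fold change −0.18, adjusted p = 0.00717, SE 0.05).

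Postn encodes periostin, a collagen-binding protein of connective tissue under load. It was at 1011, 1107, 1129, 1077 and 1122 CPM with Kdm5c siRNA on day 0, against 1114, 1473, 1197, 1354 and 1408 CPM with scramble. The overlap came from scramble replicate 1, and Postn fell by 0.26 on the log2 scale (adjusted p = 6.27e-05, SE 0.05). On day −2 and day −1 its log2 fold changes were 0.07 (adjusted p = 0.324) and 0.08 (adjusted p = 0.205). Fn1, for fibronectin, was the most abundant of the listed genes, at 20447, 21984, 21192, 20238 and 20999 CPM with Kdm5c siRNA on day 0 and 19094, 19734, 19647, 19610 and 19965 CPM with scramble. Those groups did not overlap, with a log2 fold change of 0.10 (adjusted p = 0.00071, SE 0.02). The 44 listed genes together took 4.72 ± 0.103% of all reads with Kdm5c siRNA and 4.49 ± 0.0777% with scramble on day 0, and Fn1 alone took 2.1 ± 0.0687% and 1.96 ± 0.032%. On day −2 the listed genes took 2.85 ± 0.0328% and 2.7 ± 0.0213%.

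Of 18 other genes of the CCN, SPARC and thrombospondin families and relatives, 8 were tested, with 3 higher and 1 lower on day −2, 4 and 2 on day −1, and 2 and 1 on day 0. The day 0 shares, 25% and 12.5%, were near those of all genes (19.3% and 16.2%). On day −2 they were 37.5% and 12.5%, against 11.3% and 11.9%, and on day −1 50% and 25%, against 18.8% and 16.8%. The same all-gene shares apply to the other lists of related genes below. Ccn2, a TGF-beta and YAP target that encodes connective tissue growth factor, was at 72.1 ± 5.2 and 56.3 ± 7.07 CPM on day −2 (log2 fold change 0.36, adjusted p = 0.00115). Spp1, for osteopontin, was at 2969 ± 25.7 and 2154 ± 39.3 CPM on day 0 (log2 fold change 0.47, adjusted p = 2.1e-17). Mgp, for matrix Gla protein, an inhibitor of calcification, was lower on all 3 days, with log2 fold changes of −0.52, −0.82 and −0.27.

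**Figure D3:**
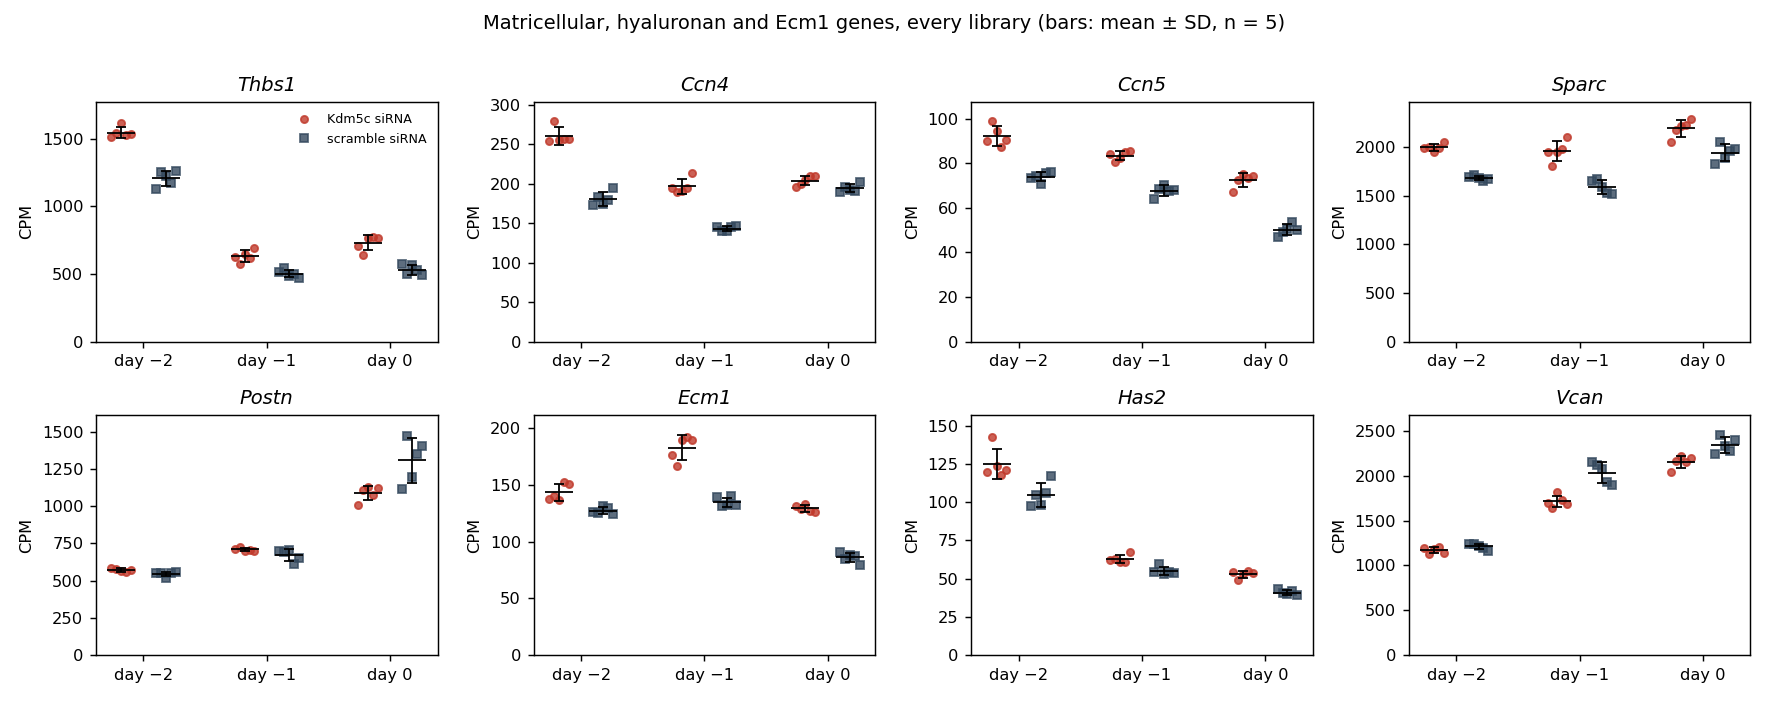
CPM (y axis, from 0) in every library by day (x axis) for 5 matricellular genes, Ecm1, Has2 and Vcan; red circles are Kdm5c siRNA, left of scramble as dark squares, and black bars show mean ± SD of 5 libraries. Thbs1, Ccn5, Ecm1 and Has2 have red points above the dark points of the same day on all 3 days, Ccn4 on day −2 and day −1, and Postn has red points mostly below the dark ones on day 0.

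The hyaluronan synthase gene and the versican gene moved apart. Has2, which makes the long hyaluronan chains of the pericellular coat (ENSMUSG00000022367; chromosome 15, 56665627 to 56694539, minus strand), was at 54.2, 48.8, 52.8, 55 and 53.5 CPM with Kdm5c siRNA on day 0 and at 42.9, 40.6, 39.9, 41.8 and 39.3 CPM with scramble. The groups did not overlap on any day, and the log2 fold changes were 0.26, 0.20 and 0.37 on day −2, day −1 and day 0 (adjusted p = 4.5e-05, 0.00194 and 7e-07). Vcan, for the large proteoglycan that binds hyaluronan (ENSMUSG00000021614; chromosome 13, 89655312 to 89742509, minus strand), was at 1701, 1645, 1815, 1735 and 1683 CPM with Kdm5c siRNA on day −1 and at 2153, 2122, 2081, 1926 and 1901 CPM with scramble. The scramble libraries split into 3 higher and 2 lower, all above the Kdm5c siRNA libraries, and Vcan fell by 0.25 on the log2 scale (adjusted p = 2.62e-07, SE 0.03). On day 0 it fell by 0.11 (adjusted p = 0.0057), at 2160 ± 66.7 and 2342 ± 87.4 CPM.

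Of 22 tested genes of hyaluronan turnover and glycosaminoglycan synthesis outside the list (27 listed), 2 were higher and 4 lower on day −2, 7 and 4 on day −1, and 10 and 3 on day 0. On day 0 that is 45.5% and 13.6%, against 19.3% and 16.2% of all genes. Cd44, the hyaluronan receptor gene, was at 264.8 ± 9.78 and 198.7 ± 12.9 CPM on day 0 (log2 fold change 0.42, adjusted p = 4.25e-13). Ext1, of the heparan sulfate polymerase, rose by 0.20 on that day, while the sulfotransferase genes Hs6st1 and Ndst1 fell by 0.33 and 0.32 on the log2 scale. Of 20 cell surface and other proteoglycan genes, 8 were tested, with 0 higher and 1 lower on day −2, 1 and 3 on day −1, and 2 and 2 on day 0 (25% each way, against the same 19.3% and 16.2%). Gpc1, a glypican gene, fell by 0.20 on day −1 and by 0.12 on day 0, and the syndecan gene Sdc1 rose by 0.13 on day 0.

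Elastic fibre genes gave calls in both directions on each day. Of the 8 members in the count table, 1 rose and 1 fell on day −2, 3 rose and 3 fell on day −1, and 3 rose and 2 fell on day 0. The shares were 12.5% each way on day −2, close to the 11.3% and 11.9% of all genes, 37.5% each way on day −1 against 18.8% and 16.8%, and 37.5% and 25% on day 0 against 19.3% and 16.2%. Fbln2 and Mfap2 rose on day −1 and day 0, Mfap4 on day 0, and Fbn1 on day −2 and day −1. Emilin1 fell on all 3 days and Fbln5 on day −1 and day 0.

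Fbln2 and Fbln5 encode fibulins, a family of microfibril-associated proteins, and they moved in opposite directions on the same days. Fbln2 (ENSMUSG00000064080; chromosome 6, 91212455 to 91272540, plus strand) was at 4648, 4739, 4667, 4592 and 4553 CPM with Kdm5c siRNA on day 0 and at 4044, 3925, 4066, 4020 and 3878 CPM with scramble, with no overlap (log2 fold change 0.22, adjusted p = 2.55e-10, SE 0.02). Fbln5, whose protein organises elastic fibres (ENSMUSG00000021186; chromosome 12, 101746565 to 101819055, minus strand), was at 217, 217, 246, 241 and 239 CPM with Kdm5c siRNA and 314, 296, 294, 298 and 289 CPM with scramble, also with no overlap, and fell by 0.36 (adjusted p = 5.77e-09, SE 0.04). On day −1 the log2 fold changes were 0.24 for Fbln2 and −0.31 for Fbln5, with adjusted p of 4.15e-11 and 1e-07. On day −2 they were 0.04 (adjusted p = 0.142) and −0.03 (adjusted p = 0.571). Fbln1 was at 94.5 ± 6.02 and 98 ± 9.1 CPM on day 0 (log2 fold change −0.05, adjusted p = 0.47).

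Emilin1, for a glycoprotein at the interface of elastin and microfibrils (ENSMUSG00000029163; chromosome 5, 30913402 to 30921277, plus strand), was at 137, 114, 133, 132 and 125 CPM with Kdm5c siRNA on day −2 and at 166, 158, 158, 153 and 140 CPM with scramble. The groups did not overlap on any day, and the log2 fold changes were −0.27, −0.33 and −0.24 (adjusted p = 0.000144, 2.14e-06 and 0.000146; SE 0.05 each). Mfap2, for a small microfibril protein (ENSMUSG00000060572; chromosome 4, 141010418 to 141015984, plus strand), was at 9.19, 10.9, 12.3, 12.2 and 12.8 CPM with Kdm5c siRNA on day 0 and 3.84, 7.96, 5.04, 6 and 5.19 CPM with scramble. Its lowest Kdm5c siRNA library was above the highest scramble library, and it had the largest rise of the members (log2 fold change 1.04, adjusted p = 2.89e-07, SE 0.14). On day −1 it was at 3.68 ± 0.601 and 2.31 ± 0.405 CPM (log2 fold change 0.68, adjusted p = 0.00431). Mfap4, whose protein binds elastin and collagen, was at 57.6 ± 5.23 and 44.9 ± 6.06 CPM on day 0 (log2 fold change 0.37, adjusted p = 0.00102, SE 0.09). Mapk7, at 56.5 CPM, overlaps 89 bases of Mfap4 on the opposite strand.

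Fbn1, for fibrillin-1, the core of microfibrils, was at 828, 887, 810, 794 and 797 CPM with Kdm5c siRNA on day −2 and 679, 734, 699, 725 and 763 CPM with scramble, without overlap (log2 fold change 0.20, adjusted p = 3.11e-06, SE 0.03). It was at 677.1 ± 14 and 626.1 ± 10.2 CPM on day −1 (0.12, adjusted p = 0.00185) and at 1032 ± 19.3 and 997.6 ± 38.6 CPM on day 0 (0.05, adjusted p = 0.162). Efemp2, for fibulin-4, was lower on day −1 alone (log2 fold change −0.08, adjusted p = 0.00382), a call lost without scramble replicates 1, 2 and 3 (−0.04, adjusted p = 0.33). Outside the count table, Efemp1 was at 1 ± 0.217 and 0.603 ± 0.13 CPM and Mfap5 at 1.63 ± 0.283 and 1.05 ± 0.222 CPM on day 0 (log2 fold changes 0.75 and 0.62, adjusted p = 0.0128 and 0.0175 over recovered reads). Eln, for elastin itself, was at 1.11 ± 0.422 and 0.875 ± 0.273 CPM on day 0 (adjusted p = 0.455). Fbn2 had reads in 2 libraries, and every value was under the limit for a count of 0.

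Of 10 other elastic fibre genes, 8 were tested, with 2 higher and 1 lower on day −2, 5 and 1 on day −1, and 6 and 1 on day 0. The day 0 shares were 75% and 12.5%, against 19.3% and 16.2% of all genes. Ltbp1, whose protein stores latent TGF-beta on microfibrils, was at 132 ± 6.15 and 82.4 ± 4.01 CPM on day 0 (log2 fold change 0.68, adjusted p = 5.66e-18). Ltbp4 and Emilin2 rose by 0.44 and 0.42 on the log2 scale on that day, and Mfap3 fell by 0.49.

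Basement membrane genes had calls only upward on day −2 and in both directions later. Of the 9 members, 2 rose and 0 fell on day −2 (Lamb1 and Lamc1), 2 rose and 3 fell on day −1, and 2 rose and 3 fell on day 0. The day −2 shares were 22.2% higher and 0% lower, against 11.3% and 11.9% of all genes. In either direction that was 22.2%, close to the 23.2% of all genes. On day −1 the shares were 22.2% higher and 33.3% lower, against 18.8% and 16.8% of all genes. On day 0 they were again 22.2% and 33.3%, against 19.3% and 16.2%. Nid2 and Lama4 fell on day −1 and day 0 and Lama2 on day 0, whereas Nid1 and Lamc1 rose on day 0 and Hspg2 and Lamb1 rose on day −1.

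Laminins are trimers of an alpha, a beta and a gamma chain. In scramble cells on day 0 the gamma chain gene Lamc1 stood at 81.1 ± 1.43 CPM per kb and the beta chain genes Lamb1 and Lamb2 at 67.2 ± 3.3 and 29.3 ± 0.756 CPM per kb. Among the alpha chain genes Lama4 stood at 27.9 ± 2.68, Lama5 at 21.3 ± 0.428 and Lama2 at 0.402 ± 0.084 CPM per kb. So each alpha chain transcript was below the Lamc1 transcript, and Lamb2 and Lama4 did not differ beyond their spread.

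Lama4 encodes the alpha chain of laminins found around fat cells and vessels. Lama4 (ENSMUSG00000019846; chromosome 10, 38965515 to 39110188, plus strand) was at 227, 255, 289, 259 and 277 CPM with Kdm5c siRNA on day 0 and at 287, 369, 323, 350 and 355 CPM with scramble. A single pair of libraries overlapped, and Lama4 fell by 0.36 on the log2 scale (adjusted p = 2.12e-05, SE 0.06). On day −1 it was at 92.2, 88.1, 108, 98.5 and 92.4 CPM with Kdm5c siRNA and 127, 125, 126, 106 and 102 CPM with scramble, where replicates 4 and 5 lay within the Kdm5c siRNA range (log2 fold change −0.29, adjusted p = 0.000856). Without scramble replicates 1, 2 and 3 the day −1 value was −0.12 (adjusted p = 0.319). Lama2, the alpha chain gene typical of muscle, was at 4.82 ± 0.812 and 6.57 ± 1.37 CPM on day 0 (log2 fold change −0.45, adjusted p = 0.00562, SE 0.13). Lama5 was at 255.4 ± 9.77 and 242.2 ± 4.87 CPM (log2 fold change 0.08, adjusted p = 0.0546).

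The nidogen genes, whose proteins join laminin to collagen IV, moved in opposite directions. Nid2 (ENSMUSG00000021806; chromosome 14, 19751265 to 19811787, plus strand) was at 60.8, 73.2, 76.9, 75.6 and 79 CPM with Kdm5c siRNA on day 0 and at 79.1, 109, 93.6, 108 and 109 CPM with scramble, where the highest of the first group fell just short of the lowest of the other (log2 fold change −0.45, adjusted p = 1.91e-06, SE 0.07). Rtraf, at 60.5 CPM, overlaps 437 bases of Nid2 on the opposite strand. Nid1 (ENSMUSG00000005397; chromosome 13, 13437551 to 13512269, plus strand) was at 918, 912, 927, 909 and 931 CPM with Kdm5c siRNA and at 839, 850, 824, 848 and 836 CPM with scramble, with no overlap (log2 fold change 0.13, adjusted p = 5.68e-06, SE 0.02). On day −1 Nid2 fell by 0.21 (adjusted p = 0.0237), a call lost without Kdm5c siRNA replicate 2 or 5 or scramble replicate 2 (adjusted p = 0.0525 to 0.0766) and without scramble replicates 1, 2 and 3 together (log2 fold change −0.12, adjusted p = 0.445).

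Lamb1 had its clearest rise on day −1, at 530, 505, 509, 506 and 527 CPM with Kdm5c siRNA and 410, 409, 430, 434 and 425 CPM with scramble (log2 fold change 0.29, adjusted p = 6.55e-10, SE 0.03). The libraries were far apart on that day and overlapped on day −2 and day 0, where the log2 fold changes were 0.08 (adjusted p = 0.0311) and 0.03 (adjusted p = 0.482). The day −2 call of Lamb1 was lost without any of 5 single libraries, Kdm5c siRNA replicates 1 and 2 and scramble replicates 1, 2 and 3 (adjusted p = 0.0567 to 0.103). Lamc1 rose by 0.09 on day −2 (adjusted p = 0.00119) and by 0.06 on day 0 (adjusted p = 0.00954). Lamb2 was lower on day −1 alone (log2 fold change −0.12, adjusted p = 0.0206), a call lost without Kdm5c siRNA replicate 2 or 5 or scramble replicate 1, 2 or 3 (adjusted p = 0.0519 to 0.0824), and its value was 0.00 without those 3 scramble libraries together. Hspg2, for perlecan, was at 1589 ± 47.6 and 1490 ± 47.3 CPM on day −1 (log2 fold change 0.10, adjusted p = 0.00188).

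Among 17 other laminin and basement membrane genes, 8 were tested, with 3 higher and 1 lower on day −2, 5 and 0 on day −1, and 6 and 0 on day 0 (75% and 0%, against 19.3% and 16.2% of all genes). Pxdn, for peroxidasin, which cross-links collagen IV, was at 455.8 ± 16.1 and 357.8 ± 7.45 CPM on day 0 (log2 fold change 0.35, adjusted p = 4.67e-12). Ntn1 rose by 0.26 and Hmcn2 by 0.68 on the log2 scale on day 0. Of 13 matrix receptor genes, 11 were tested, with 5 higher and 0 lower on day −2, 6 and 1 on day −1, and 7 and 0 on day 0 (63.6% and 0% on day 0). Itga3, an integrin chain gene for laminin binding, was at 39.8 ± 1.19 and 26.4 ± 2.05 CPM on day 0 (log2 fold change 0.59, adjusted p = 2.5e-12), and Itga5, of the fibronectin receptor, rose by 0.15.

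**Figure D4:**
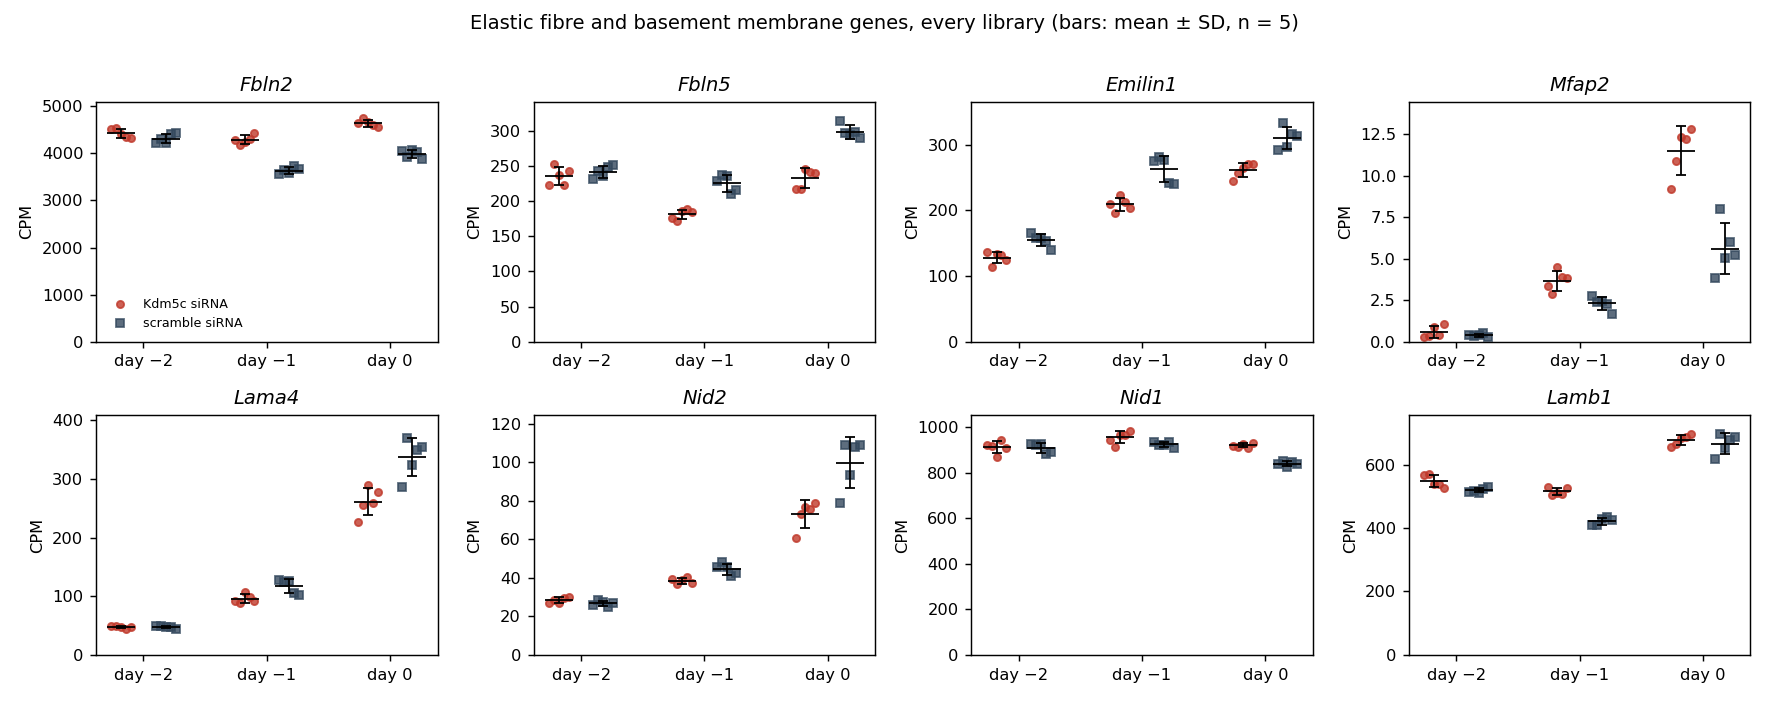
CPM (y axis, from 0) of 4 elastic fibre genes (top) and 4 basement membrane genes (bottom) in every library by day (x axis); red circles are Kdm5c siRNA, left of scramble as dark squares, and black bars show mean ± SD of 5 libraries. On day 0 Fbln2, Mfap2 and Nid1 have red points above all dark points, Fbln5, Emilin1 and Nid2 have them below, and Lamb1 differs on day −1.

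Ecm1 encodes a secreted glycoprotein that binds perlecan and matrix proteases, and its rise was larger on day 0 than on day −2. Ecm1 (ENSMUSG00000028108; chromosome 3, 95734147 to 95739569, minus strand) was at 131, 129, 133, 127 and 126 CPM with Kdm5c siRNA on day 0 and at 90.5, 84.8, 88.4, 87.2 and 79.7 CPM with scramble. The groups did not overlap on any day, and the log2 fold changes were 0.18, 0.45 and 0.59 on day −2, day −1 and day 0 (adjusted p = 0.000308, 6.27e-12 and 2.31e-14; SE 0.04 each). Matn2, for matrilin-2, was at 263.4 ± 10.4 and 253.8 ± 15.2 CPM on day 0 (log2 fold change 0.06, adjusted p = 0.255).

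The difference between the siRNA effects of 2 days was tested in the same model. Between day 0 and day −2 the effect differed in 15 of 38 members, more positive on day 0 in 6 and more negative in 9 (15.8% and 23.7%; background 9.95% and 6.18%). The leucine-rich genes Ogn, Prelp and Aspn had differences of −0.61 (SE 0.11), −0.59 (SE 0.18) and −0.58 (SE 0.13) on the log2 scale, with adjusted p of 0.000117, 0.0181 and 0.00287. Nid2 and Ccn4 had differences of −0.54 (SE 0.10) and −0.46 (SE 0.05), and Ecm1 the largest positive difference called, 0.41 (adjusted p = 7.37e-07, SE 0.05). Between day 0 and day −1 it was 1 member more positive and 4 more negative (2.63% and 10.5%; background 4.06% and 1.81%, or 5.87% in either direction). Ogn (−0.57, SE 0.10), Ccn4 (−0.39), Postn (−0.34) and Lamb1 (−0.27) were more negative on day 0 and Ccn5 (0.23, SE 0.05) more positive. Without day −1 scramble replicates 4 and 5 there were 5 more positive and 4 more negative.

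In scramble cells most of these genes rose between day −2 and day 0. Of the 38 members, 29 rose and 7 fell (76.3% and 18.4%; background 44.6% and 43.6%, or 88.2% in either direction), with a median log2 fold change of 1.01, against 0.00 over all genes. Between day −1 and day −2, 23 were higher and 12 lower on the later day (60.5% and 31.6%; background 39.5% and 39.4%), and between day 0 and day −1, 32 were higher and 4 lower (84.2% and 10.5%; background 36.8% and 37.9%). The knockdown comparison on day 0 and this time course share the day 0 scramble libraries, so their values are not independent. Those libraries enter the 2 comparisons with opposite signs, so an error in their mean moves the 2 values in opposite directions.

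All 7 leucine-rich genes of the count table rose over the whole interval, with a median of 2.35 on the log2 scale. Podn was at 0.203 ± 0.0755, 1.29 ± 0.19 and 10.7 ± 0.849 CPM in scramble cells on day −2, day −1 and day 0 (day 0 against day −2, log2 fold change 5.68, SE 0.13). Dcn was at 13.6 ± 0.988, 34.1 ± 2.68 and 186.4 ± 22.7 CPM (3.74, SE 0.08) and Prelp at 1.62 ± 0.137, 7.43 ± 0.923 and 20.3 ± 1.17 CPM (3.61, SE 0.10). Lum had means of 0.102, 0.585 and 9.68 CPM, the first at the limit for a count of 0. Lama4 was at 47.4 ± 1.95, 117.3 ± 12.3 and 336.9 ± 32.3 CPM (2.79, SE 0.07), Lama5 changed by 1.82 and Fn1 by 1.42.

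The members that fell in scramble cells from day −2 to day 0 were Has2 (by 1.4 on the log2 scale, SE 0.05), Thbs1 (by 1.22, SE 0.05), Ecm1 (by 0.60), Ccn5 (by 0.60), Nid1 (by 0.15), Fbln2 (by 0.15) and Efemp2 (by 0.09). Thbs1 dropped within the first day, to 503.8 ± 27.8 CPM on day −1 against 1209 ± 55 CPM on day −2. Set side by side for the day 0 knockdown comparison and the scramble time course, Has2 had log2 fold changes of 0.37 and −1.40, Thbs1 0.46 and −1.22, Ecm1 0.59 and −0.60 and Ccn5 0.53 and −0.60. Prelp had −0.79 and 3.61, Aspn −0.39 and 2.35, Ogn −0.41 and 1.72, Lama4 −0.36 and 2.79, and Nid2 −0.45 and 1.85. Mfap2, by contrast, had 1.04 and 3.82, Mfap4 0.37 and 3.79, Fn1 0.10 and 1.42, Thbs3 0.21 and 0.72, and Sparc 0.18 and 0.17. The genes set side by side are examples, and members with opposite and with like signs were left out.

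**Figure D5:**
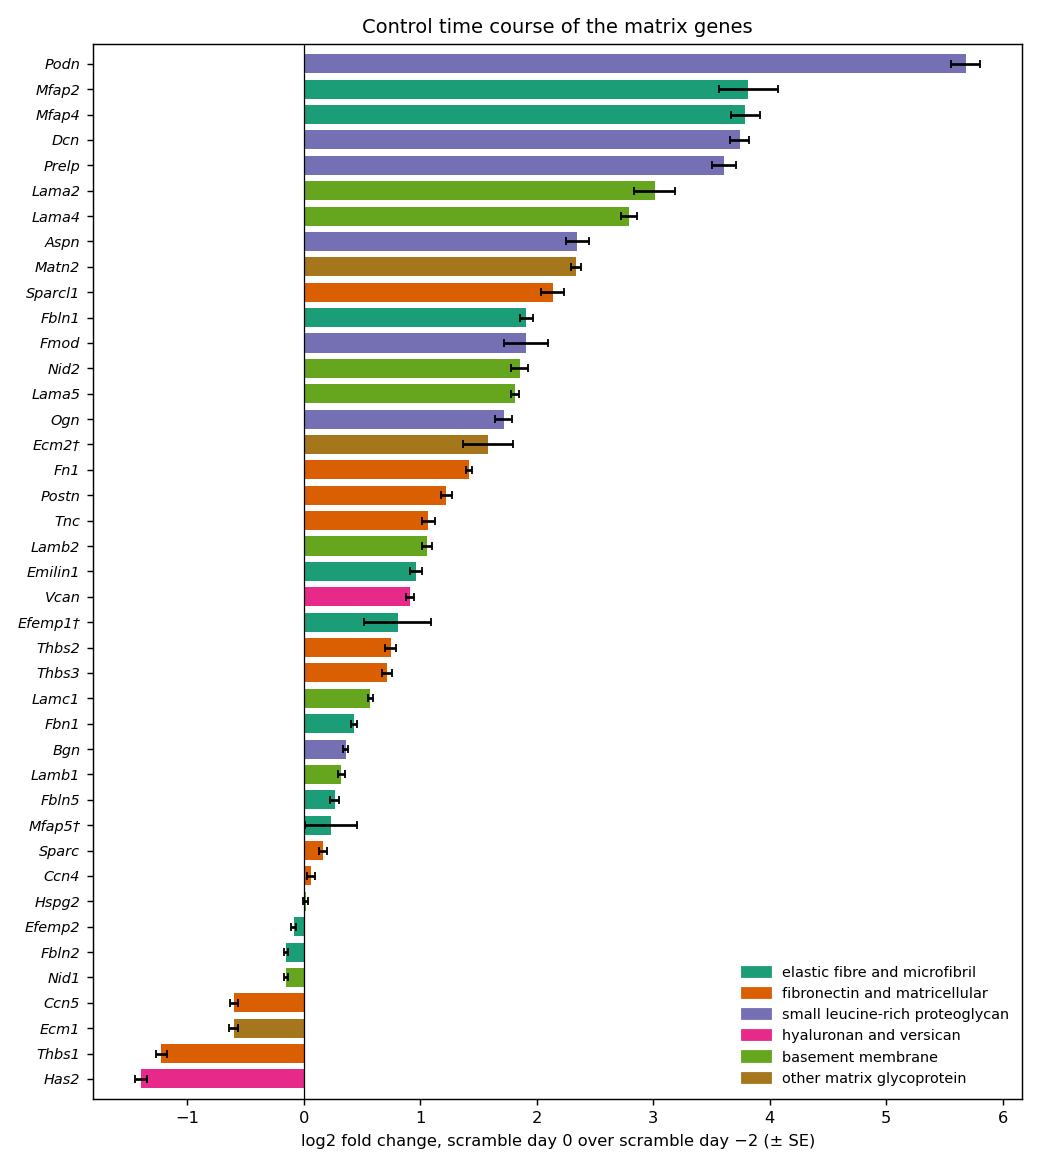
Log2 fold change of scramble day 0 over scramble day −2 (x axis, bars ± SE of the edgeR model) for each fitted gene (rows), coloured by role; daggers mark genes fitted on reads recovered from the CPM table, and genes with a day −2 mean under the limit for a count of 0 are left out. Podn, Mfap2, Mfap4, Dcn and Prelp have the longest bars to the right, and Thbs1 and Has2 the longest to the left.

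Per kilobase, the scramble day 0 levels of the listed genes ranged from 1678.2 ± 27.4 CPM per kb for Fn1 to 0 for Fbn2. Fn1, Bgn (956.4), Fbln2 (625.8), Sparc (512.7) and Vcan (161.9) were the first 5. Each of the first 4 was above the next by more than 4 times the larger SD of the pair (4.93 times between Fbln2 and Sparc). Vcan and Postn (150.4) did not differ beyond their spread, nor did Aspn (89.2) and Thbs1 (87.6), or Lama4 (27.9) and Ogn (27.8).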

How the data were processed

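Per the labels' protocols, 30 strand-specific mRNA libraries were made with a NuGEN Universal plus mRNA-Seq kit. The aligner STAR 2.7.2a, the package edgeR 3.26.8 and build GRCm38 are named, per the submitters' processing notes. Which program counted reads is not given in the sources used here. A deposited table held the authors' CPM for 55573 genes, whose values were whole reads over the library total (100.0% of nonzero values within 0.05 reads of a whole number). The authors' second deposited table, named as normalized, held raw counts of 12016 genes, those with at least 1 CPM in 20 or more libraries; they were 99.73 to 99.8% of each library's reads. Every sample column was used, matched by day, siRNA and replicate number. Symbols, coordinates and exon lengths were taken from GENCODE M21, which held all 12016 identifiers.

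With edgeR 4.0.16 (R 4.3.3), TMM-scaled counts were fitted by a quasi-likelihood model with 6 group means over 30 libraries (24 residual degrees of freedom); each contrast was two-sided and Benjamini-Hochberg adjusted. Each SE belongs to a log2 fold change. The 6 listed genes outside the count table were fitted on whole reads recovered from the CPM table (15135 genes past edgeR's low-count filter); Fbn2 did not pass. On simulated data with known changes of 0.3 on the log2 scale, 73.1%, 67.2% and 79.1% were recovered for day −2, day −1 and day 0. In each simulation 67 of 12016 genes had that change, 67 others a change of 0.15 and 66 others a change of 0.6. All were in the Kdm5c siRNA group of the day, and the groups otherwise had equal means. Of the changes of 0.15, 49.3%, 43.3% and 41.8% were recovered for day −2, day −1 and day 0. Far fewer genes were changed than were called in the real comparisons, so these rates need not hold there.

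The listed genes, companion lists and rules for naming were chosen with earlier results of these data known. Every library was printed for called members with a log2 change of at least 0.5 and 2 CPM, and for up to 4 more per role by smallest adjusted p; the libraries of Thbs2 and Fn1 were added after they were seen. Up to 4 called genes per companion list could be named. Alternatives were DESeq2 1.42.0, limma 3.58.1 on log2 CPM with pseudocounts of 0.5 and 2, other scalings and filters, a replicate block, the contrast's own libraries, each library left out in turn and groups of libraries left out. Leaving out day −1 scramble replicates 4 and 5, and day 0 replicate 1 of both siRNAs, was chosen after seeing the data, as was the fit to recovered reads.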

Additional observations from a re-analysis of the deposited data

Results flagged for a closer look

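Of 217 groups of 5 libraries tested, 12 held a library far from the other 4; chance flags about 1 in 20 groups. With Kdm5c siRNA on day −2, Thbs2 was at 323 CPM in 1 library (others 372 to 379), Ccn4 at 279 CPM (254 to 257) and Has2 at 143 CPM (118 to 124), and in all 3 genes the library was replicate 2. With Kdm5c siRNA on day −1, Sparcl1 was at 88.4 CPM (97.4 to 98.9), Ccn4 at 213 CPM (190 to 195) and Has2 at 67.7 CPM (60.7 to 62.7), all in replicate 5, and Bgn at 5320 CPM (4962 to 5064) in replicate 4. With Kdm5c siRNA on day 0, Thbs3 was at 62.8 CPM (58.1 to 59.4) and Hspg2 at 1655 CPM (1713 to 1735). With scramble, Dcn was at 11.9 CPM on day −2 (13.8 to 14.5), Prelp at 5.83 CPM on day −1 (7.44 to 8.03) and Has2 at 59.5 CPM on day −1 (53.2 to 54.4).

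The siRNA effect differed between days, by a test of the difference, in these genes. From day −2 to day 0 the difference in log2 fold change was negative for Ogn (−0.61), Prelp (−0.59), Aspn (−0.58), Nid2 (−0.54), Ccn4 (−0.46), Lama4 (−0.37), Postn (−0.33), Fbln5 (−0.32) and Fbn1 (−0.15). It was positive for Ecm1 (0.41), Thbs2 (0.26), Ccn5 (0.21), Fbln2 (0.18), Thbs3 (0.18) and Nid1 (0.12). From day −1 to day 0 it was negative for Ogn (−0.57), Ccn4 (−0.39), Postn (−0.34) and Lamb1 (−0.27), and positive for Ccn5 (0.23).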

How the results depend on the processing

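The knockdown comparisons and the differences between days gave 77 called results of single members. Of these, 66 kept their call and direction in all 43 settings, 11 lost the call in at least 1 and 0 reversed. The 4 calls of Lum, Efemp1 and Mfap5 could be refitted in at most 2. Calls of the scramble time course were not followed gene by gene. For day 0 against day −2 their counts ranged over 29 to 33 higher and 6 to 7 lower. The losses among the 77 were those named beside Bgn, Lamb1, Dcn, Nid2, Lama4, Lamb2, Efemp2 and Thbs3 above, Lamc1 on day 0 (adjusted p = 0.0961 with no filter and 0.0605 with only the contrast's libraries), Dcn also with DESeq2 (0.0905), limma (0.0934 and 0.0788) and the contrast's libraries (0.0518), the day 0 minus day −2 difference of Prelp without Kdm5c siRNA day −2 replicate 5 (0.0509), and that of Thbs3 in 12 leave-outs (0.0548 to 0.111). With no filter on low counts, which also counts listed genes outside the count table, 16 were higher on day −2. Of the 32318 genes of that fit, 1297 were higher. The outside genes cannot have given all the added calls. On day −2 Fbn2 had 0 reads, Lum was lower with Kdm5c siRNA (0.052 and 0.102 CPM) and Efemp1 was level (0.328 and 0.321 CPM). So the day −2 count of members depends on the filter. Between day 0 and day −1 the effect was more positive in 8 and more negative in 7, and in 514 and 334 of all genes of that fit. Leaving out day −1 scramble replicates 1, 2 and 3 gave 4 lower on day −1. Over all genes it gave 1280 higher and 1288 lower on day −1, against 2253 and 2019 with every library, and 318 and 129 for day 0 minus day −1, against 488 and 217 (334 lower with no filter). The day 0 minus day −1 difference was positive in 1 member, in 2 with only the contrast's libraries, in 1 to 2 leaving out 1 library, and in 5 without day −1 scramble replicates 4 and 5. Leaving out 1 library gave 8 to 11 higher and 2 lower on day −2, 13 to 15 and 6 to 10 on day −1, and 12 to 14 and 11 to 12 on day 0. Deviations of each gene's log2 CPM from its group mean were correlated between same-numbered libraries of different groups. They gave r of −0.225 to 0.299, over 0.1 in 6 of 30 pairs. Replicate 1 of both siRNAs on day 0 gave the 0.299, but most pairs did not deviate together and the numbers were not taken to pair the libraries. With a replicate block 13 were higher and 12 lower on day 0, with 0 calls lost and Ccn4 on day 0 gained. Scaling moved the median of all genes by at most 0.07. Depth limits the genes near 1 CPM.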
